A study of Mus musculus with 34 samples.

Results

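The genes described here make leukotrienes and prostaglandins, the lipid mediators built from arachidonic acid. They were chosen by name: *Pla2g4a*, *Alox5*, *Alox5ap*, *Ltc4s*, *Lta4h*, *Ptgs1*, *Ptgs2*, *Hpgds*, *Ptges* and *Ptgis*, 10 of the 25853 gene rows in the tables, and all 10 were found. Cytosolic phospholipase A2 (*Pla2g4a*) frees arachidonic acid from membranes. The 5-lipoxygenase encoded by *Alox5*, with its membrane partner *Alox5ap*, turns it into leukotriene A4, which leukotriene C4 synthase (*Ltc4s*) or leukotriene A4 hydrolase (*Lta4h*) then converts to leukotriene C4 or B4. The cyclooxygenases *Ptgs1* and *Ptgs2* make prostaglandin H2 instead, from which *Hpgds* forms prostaglandin D2, *Ptges* prostaglandin E2 and *Ptgis* prostacyclin. Mast cells (MCs) are known for making prostaglandin D2 and leukotriene C4, and vascular smooth muscle for prostacyclin and prostaglandin E2.

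Single cells sorted from mouse ear skin were profiled by mCEL-Seq2, a plate method that counts the 3′ ends of transcripts with unique molecular identifiers (UMIs). MCs were CD45+ YFP+ cells from 7-week-old male mice carrying Mcpt5-cre, which acts in connective tissue MCs, and a YFP reporter. The 3 Tln1 knockout (Tln1 KO) mice also carried floxed *Tln1*, the gene of the integrin adaptor talin-1. The 3 wild-type (WT) littermates carried Mcpt5-cre and YFP with intact *Tln1*. The cells labelled vascular smooth muscle were CD45- GFP+ cells from Myh11-GFP mice in 4 libraries, here called Myh11-GFP cells, and the number of mice behind these was not given in the sources used here. Myh11 also marks pericytes. Cells with over 1000 transcripts were kept, which left 2477 MCs from 30 libraries (338, 294 and 272 in WT mice 1 to 3 and 285, 354 and 934 in Tln1 KO mice 1 to 3) and 330 Myh11-GFP cells (93, 78, 86 and 73 in libraries 13 to 16). Levels are transcripts per 10,000 transcripts outside genes named Gm plus a number. The mouse was the replicate for MCs. No test was made between MCs and Myh11-GFP cells, and the intervals given cover counting error only.

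Each mouse gave 699401 to 5238325 transcripts outside the Gm genes and each Myh11-GFP library 221589 to 478713. *Tln1* itself stood at 4.51, 5.92 and 6.71 per 10,000 in WT mice and at 5.57, 4.33 and 3.63 in Tln1 KO mice, so the genotypes overlapped. The counted 3′ ends are not known to lie in the deleted part, and this level therefore checks no label. All 9 MC markers, among them *Cpa3*, *Kit* and *Mcpt4*, were found in MCs, where they summed to 6.33 to 8.66% of transcripts against at most 0.00265% in Myh11-GFP libraries. Those libraries held contractile genes at 0.791 to 1.07%, pericyte genes at 1.18 to 1.25% and fibroblast genes at 1.42 to 3.40%, so pericyte and fibroblast genes summed to more than contractile genes in each. All 34 libraries use the same 192 plate barcodes, so a shared barcode does not mark a shared cell. Among MCs, 5 barcodes held over 40000 transcripts and the next deepest held 29067. Of these, 4 also carried raised keratinocyte, macrophage or fibroblast markers, and results that rest on the 5 are given with and without them.

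Upstream sequences are shown for *Hpgds*, the MC gene, and for *Ptgs2* and *Ptges*, the Myh11-GFP cell genes, to set the promoters of the opposing members side by side. Each run holds the 250 bases before the RefSeq start in GRCm38.p6, 5′ to 3′ on the strand of the gene. Capitals mark a GC box (GGGCGG) or an E box (CATGTG), each searched on both strands. The windows are chr6:65144731-65144980 on the minus strand for *Hpgds*, chr1:150099781-150100030 on the plus strand for *Ptgs2* and chr2:30903298-30903547 on the minus strand for *Ptges*.
Hpgds: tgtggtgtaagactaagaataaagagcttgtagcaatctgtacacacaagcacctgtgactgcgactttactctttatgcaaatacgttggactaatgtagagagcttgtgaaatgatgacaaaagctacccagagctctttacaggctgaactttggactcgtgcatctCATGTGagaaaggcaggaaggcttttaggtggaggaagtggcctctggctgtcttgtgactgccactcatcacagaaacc
Ptgs2: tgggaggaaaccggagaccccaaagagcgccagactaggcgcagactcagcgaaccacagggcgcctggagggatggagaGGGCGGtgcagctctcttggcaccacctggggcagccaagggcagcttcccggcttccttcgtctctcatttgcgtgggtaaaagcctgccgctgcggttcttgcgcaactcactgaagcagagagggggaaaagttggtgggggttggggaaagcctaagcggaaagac
Ptges: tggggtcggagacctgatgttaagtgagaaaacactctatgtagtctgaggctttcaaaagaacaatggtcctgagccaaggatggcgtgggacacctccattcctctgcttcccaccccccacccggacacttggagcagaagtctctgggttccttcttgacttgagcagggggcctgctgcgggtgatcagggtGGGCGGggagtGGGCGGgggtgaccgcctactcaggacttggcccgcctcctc
The *Hpgds* window held 1 E box and no GC box, that of *Ptgs2* 1 GC box and that of *Ptges* 2 GC boxes. Over 32851 windows of the same length, 32.7% held a GC box and 12.3% the E box. The letters TATAAA (12.4% of windows), AGATAA (9.99%), TGACGT (6.47%) and TGACTCA (4.46%) were in none of the 3. These matches describe letters and not binding. *Pla2g4a* and *Ptgs2* are neighbours on chromosome 1, with 138740 bp between the end of the former at 149961290 and the start of the latter at 150100031 in the GENCODE annotation of GRCm38.

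*Hpgds*, the synthase of prostaglandin D2, was the most abundant of the 10 genes in MCs and nearly missing from Myh11-GFP cells. Its level was 3.63, 2.48 and 2.16 per 10,000 in WT mice 1 to 3, 3.63, 3.11 and 3.10 in Tln1 KO mice 1 to 3, and 0.0836, 0, 0.106 and 0 in Myh11-GFP libraries 13 to 16. Every mouse lay above every library and the genotypes overlapped. Pooled over cells, 3021 transcripts in MCs against 8 in Myh11-GFP cells gave a level 54.9 times as high (95% interval 27.8 to 127). Without the 5 deep barcodes the ratio was 58.5. *Hpgds* was found in 30 of 30 MC libraries, at 1.51 to 4.80 per 10,000, and ranked 442 among the 19759 genes with a transcript in MCs other than the deep barcodes. By cell, 1094 MCs held no *Hpgds* UMI, 613 held 1, 663 held 2 to 4 and 107 held 5 or more, with 13 as the most. The part of sampling at this depth in these counts was not tested.

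**Figure D1:**
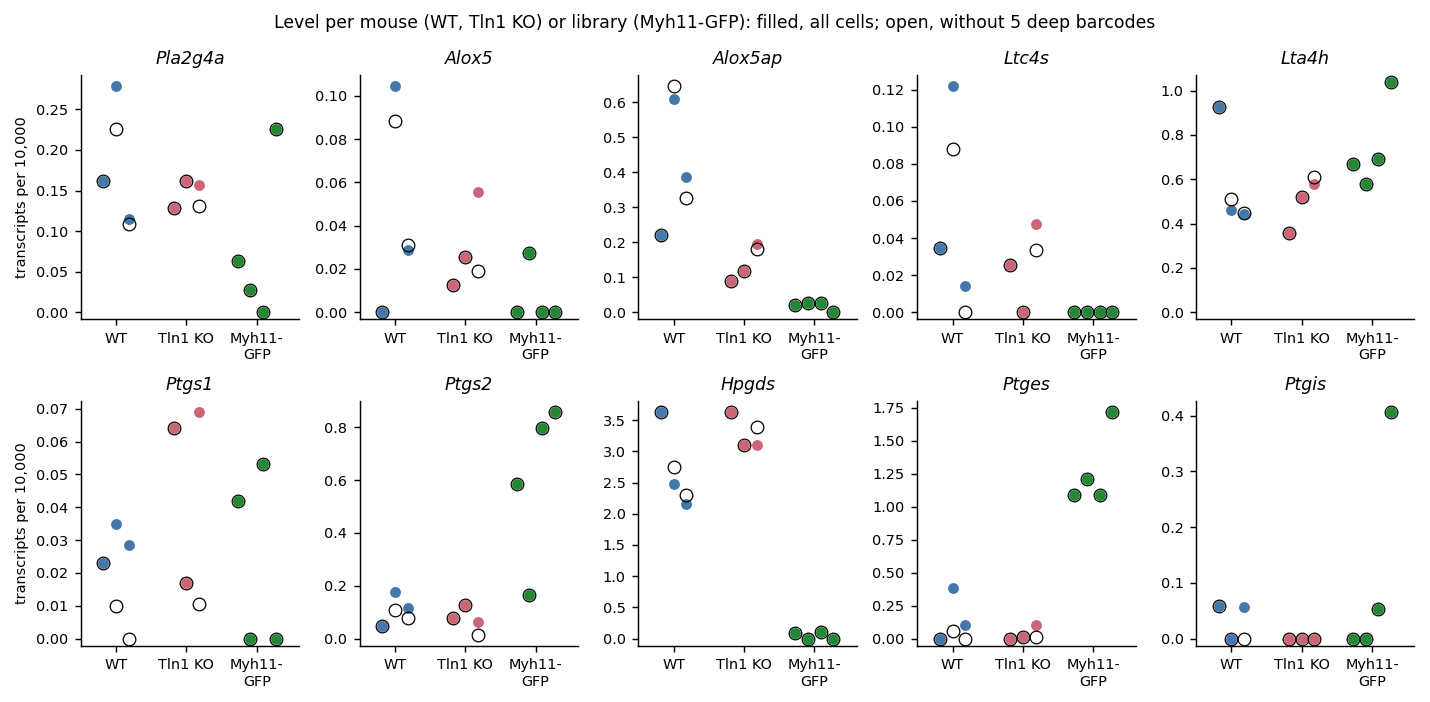
Level of each gene (transcripts per 10,000 outside Gm genes) in 3 WT mice, 3 Tln1 KO mice and 4 Myh11-GFP libraries, filled points for all cells and open points without the 5 barcodes of over 40000 transcripts. *Hpgds* lies at 2.16 to 3.63 in the mice and at or below 0.106 in the libraries, and the open points fall well below the filled ones for *Ptges* in 2 WT mice and 1 Tln1 KO mouse.

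Every cell was thinned to 1000 UMIs, which left out 2 MCs and 1 Myh11-GFP cell. An *Hpgds* UMI was then held by 19.2% of 2475 MCs (exact binomial interval over pooled cells 17.7 to 20.8). It was held by 0 of 329 Myh11-GFP cells (exact upper limit 1.11% of cells with a UMI at that depth). By mouse, the share of MCs ran from 10.3% in WT mouse 3 to 25.9% in Tln1 KO mouse 3. Tln1 KO mouse 3 held 242 of the 476 MCs with a UMI. The pooled interval therefore does not cover the spread between mice. Unthinned, the pooled shares were 55.8% of MCs and 2.42% of Myh11-GFP cells, at median depths of 5441 and 4593 transcripts. *Lta4h* was next in MCs at 3.23% of thinned cells and was found in 6.38% of Myh11-GFP cells. *Alox5ap* followed at 1.21% of MCs and *Pla2g4a* at 0.970%, each against 0.304% of Myh11-GFP cells. The order was the opposite for *Ptges*, at 0.242% of MCs and 6.08% of Myh11-GFP cells, and for *Ptgs2*, at 0.404 and 3.04%. Across the whole set 2 genes, *Hpgds* and *Alox5ap*, had all 6 mice above all 4 libraries and 1, *Ptges*, had all below. Both kinds were among the 6 members that passed a filter on low values (10 transcripts in at least 3 mice or libraries). Of 9991 genes tested, 22% stood wholly above and 17.6% wholly below.

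**Figure D2:**
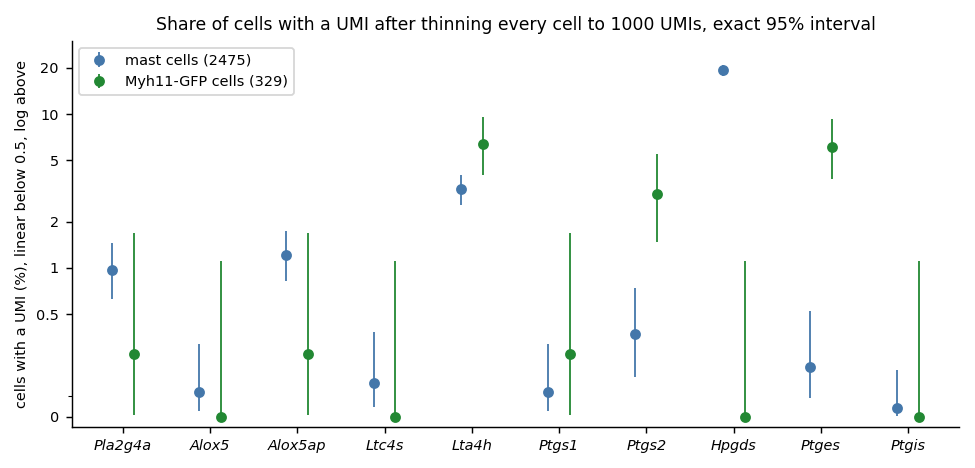
Share of cells (%) with at least 1 UMI of each gene after thinning every cell to 1000 UMIs, in 2475 MCs and 329 Myh11-GFP cells, with exact 95% binomial intervals on an axis that is linear below 0.5 and logarithmic above. *Hpgds* separates MCs at 19.2%, and *Ptges* and *Ptgs2* separate Myh11-GFP cells at 6.08 and 3.04%. The 1000 UMIs include those of Gm genes, whose share of transcripts differs between mice and libraries. The intervals pool the cells of all mice or libraries and do not cover the spread between them.

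Of the leukotriene genes, *Alox5ap*, which presents arachidonic acid to 5-lipoxygenase, was the clearest in MCs. It stood at 0.220, 0.610 and 0.386 per 10,000 in WT mice 1 to 3, at 0.0897, 0.119 and 0.195 in Tln1 KO mice 1 to 3, and at 0.0209, 0.0275, 0.0265 and 0 in Myh11-GFP libraries 13 to 16. MCs as a whole were 11.6 times as high as Myh11-GFP cells (95% interval 3.91 to 56.5; 239 against 3 transcripts), and all 30 MC libraries held it. Every Tln1 KO mouse lay below every WT mouse, an order seen in 5.91% of the 9233 genes tested, while 5.42% had the reverse order. The WT mean was 0.405 ± 0.196 and the Tln1 KO mean 0.135 ± 0.0543 (SD, n = 3 mice each), a log2 difference of -1.47 (SE 0.42; fold 0.360). This did not pass limma with Benjamini-Hochberg adjustment (p = 0.00653, adjusted p = 0.809), and the exact two-sided permutation test gave p = 0.1, the smallest that 3 against 3 mice allow. The counting intervals of WT mouse 1 (0.132 to 0.343) and Tln1 KO mouse 3 (0.159 to 0.236) overlapped.

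*Alox5ap* is also a gene of macrophages, and macrophage markers moved in part with it. Of 11 markers 10 were found in MCs, *Lyz2* being listed at 0, and they summed to 0.0210, 0.413 and 0.162% of transcripts in WT mice 1 to 3 and 0.0181, 0.0119 and 0.0753% in Tln1 KO mice 1 to 3. WT mice 2 and 3, the highest in *Alox5ap*, were the highest in these markers, whereas WT mouse 1 was below Tln1 KO mouse 3 in the markers and above it in *Alox5ap*. The library with most *Alox5ap*, 1.03 per 10,000 and 43 transcripts, was library 3 of WT mouse 2. When cells with over 1% of transcripts from macrophage markers were left out, the genotype difference was -1.02 (limma p = 0.0167, adjusted p = 0.969). Without the deep barcodes and all cells rich in markers of other cell types, the levels were 0.232, 0.353 and 0.194 in WT mice. They were 0.0909, 0.119 and 0.126 in Tln1 KO mice, still without overlap. The ratio to Myh11-GFP cells was then 5.37 (95% interval 1.80 to 26.3). The same limit also removed Myh11-GFP cells and left 75, 62, 65 and 44 in libraries 13 to 16. Their 3 transcripts then gave a pooled level of 0.0299 in place of 0.0208, and MCs one of 0.161 in place of 0.241. Fibroblast markers also moved with the genotype, at 0.201, 0.827 and 0.541% of transcripts in WT mice and 0.105, 0.0197 and 0.00976% in Tln1 KO mice. With deep barcodes and marker-rich cells left out they were 0.0168, 0.0675 and 0.0333% in WT mice and 0.0123, 0.0107 and 0.0107% in Tln1 KO mice, again without overlap. The part of macrophages or fibroblasts in the *Alox5ap* difference was not tested.

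**Figure D3:**
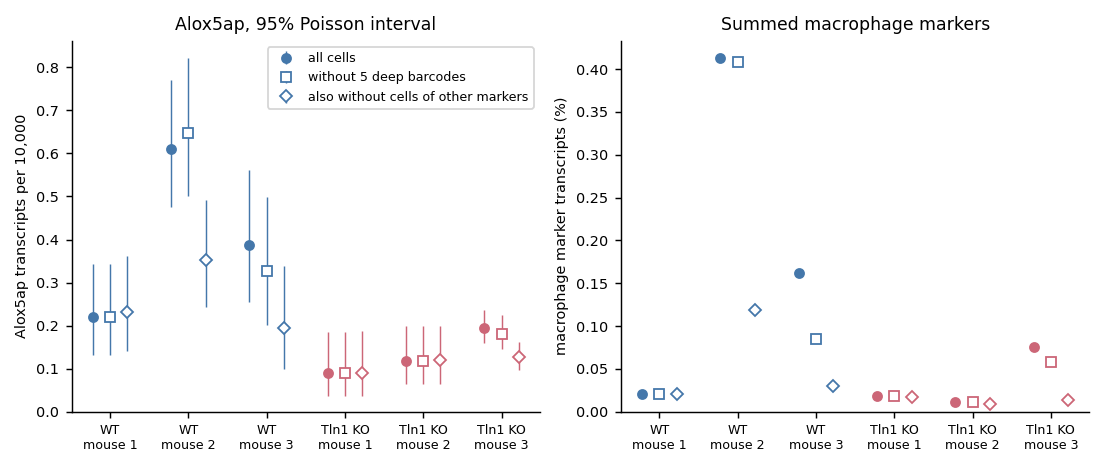
Left, *Alox5ap* level (transcripts per 10,000 outside Gm genes) in each mouse for all cells and with cells left out, with 95% Poisson intervals; right, summed macrophage markers (% of transcripts) in the same mice. The 3 WT mice sit at 0.220 to 0.610 and the 3 Tln1 KO mice at 0.0897 to 0.195, while the markers are highest in WT mouse 2 at 0.413%.

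*Lta4h*, the hydrolase that forms leukotriene B4, was found at similar levels on both sides. It stood at 0.925, 0.462 and 0.443 per 10,000 in WT mice, 0.359, 0.518 and 0.580 in Tln1 KO mice, and 0.669, 0.578, 0.690 and 1.04 in Myh11-GFP libraries 13 to 16. All 3 groups overlapped, with a pooled ratio of MCs to Myh11-GFP cells of 0.794 (95% interval 0.642 to 0.990). *Pla2g4a*, the phospholipase at the head of the pathway, lay at 0.162, 0.279 and 0.114 in WT mice, at 0.128, 0.161 and 0.157 in Tln1 KO mice, and at 0.0627, 0.0275, 0 and 0.226 in the libraries. Its pooled level was 2.67 times as high in MCs (95% interval 1.37 to 5.93), yet library 16, with 5 of the 9 Myh11-GFP transcripts, lay inside the range of the mice. Without that library the ratio was 5.07.

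*Alox5* and *Ltc4s*, the enzymes on either side of leukotriene A4, were scarce. *Alox5* gave 47 transcripts in all MCs and 1 in Myh11-GFP cells, at 0, 0.105 and 0.0286 per 10,000 in WT mice and 0.0128, 0.0255 and 0.0555 in Tln1 KO mice. *Ltc4s* gave 45 transcripts and none in Myh11-GFP cells, at 0.0347, 0.122 and 0.0143 in WT mice and 0.0256, 0 and 0.0477 in Tln1 KO mice. Against a floor of 3 counts over all Myh11-GFP cells, MCs were at least 2.18-fold higher, or at least 1.56-fold without the deep barcodes. With marker-rich cells of both kinds left out as well, the value against the floor was 0.852. The pooled MC level was then 0.0255, against 0.0325 without the deep barcodes alone, and the floor rested on fewer Myh11-GFP cells. A count of 3 corresponds to 0.00573 to 0.0429 per 10,000 in a mouse, depending on its depth, and for each of these genes 3 of the 6 mice held fewer than 3 transcripts. *Ptgs1*, the constitutive cyclooxygenase, was as low, at 0.0231, 0.0349 and 0.0286 in WT mice, 0.0641, 0.0170 and 0.0690 in Tln1 KO mice, and 0.0418, 0, 0.0531 and 0 in the libraries.

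Much of this low signal in MC samples sat in the 5 deep barcodes. They held 6.80% of MC transcripts but 88.5% of the *Ptges*, 70.7% of the *Ptgs1*, 44.2% of the *Ptgs2* and 33.3% of the *Ltc4s* transcripts and 23 of the 47 *Alox5* transcripts, against 10.9% of *Alox5ap*, 3.24% of *Lta4h* and 0.630% of *Hpgds*. The deepest, in library 8 of Tln1 KO mouse 3, had 431991 transcripts, 92.3 times the median of its library, of which 2.91% were keratinocyte markers. It alone held 47 *Ptges*, 31 *Ptgs1*, 26 *Ptgs2*, 20 *Alox5*, 20 *Pla2g4a* and 9 *Ltc4s* transcripts. Its *Cpa3* level, 4.76 per 10,000, compared with a median of 106 in that library. A barcode of WT mouse 2 with 94842 transcripts and 2.66% keratinocyte markers held 37 *Ptges* transcripts. In WT mouse 3, one with 83577 transcripts and 6.20% fibroblast markers held 7 *Ptges* and 4 *Ptgis* transcripts. Outside the 5 barcodes MCs held 12 *Ptges*, 15 *Ptgs1*, 24 *Alox5*, 30 *Ltc4s* and 48 *Ptgs2* transcripts. The ratio of MCs to Myh11-GFP cells for *Alox5* was 6.84 with them (95% interval 1.17 to 275) and 3.74 without (0.610 to 154), and for *Ptgs1* 1.86 with them (0.681 to 7.06) and 0.585 without (0.186 to 2.42). Leaving out all of Tln1 KO mouse 3 gave 1.16 for *Ptgs1*.

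**Figure D4:**
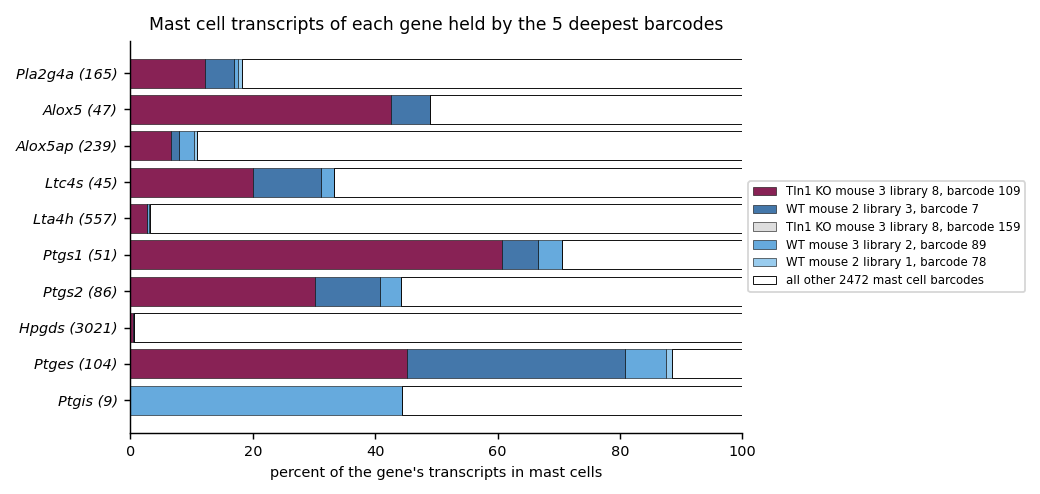
Share (%) of the MC transcripts of each gene held by the 5 barcodes with over 40000 transcripts, as stacked bars coloured by barcode with the rest in all other MCs. *Ptges* reaches 88.5% and *Ptgs1* 70.7%, against 0.630% of *Hpgds*. The share of all transcripts, 6.80%, is not drawn.

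*Ptges*, the inducible synthase of prostaglandin E2, had the highest level of the 10 genes in Myh11-GFP cells. Libraries 13 to 16 held 1.09, 1.21, 1.09 and 1.72 per 10,000, against 0, 0.385 and 0.1002 in WT mice and 0, 0.00849 and 0.0998 in Tln1 KO mice. Every library lay above every mouse. The pooled level was 11.5 times as high in Myh11-GFP cells (95% interval 9.03 to 14.9) and 93.5 times as high once the deep barcodes were left out (52.2 to 184). The MC levels then became 0, 0.0588 and 0 in WT mice and 0, 0.00849 and 0.0105 in Tln1 KO mice. It ranked 1280 of 14907 genes with a transcript in Myh11-GFP cells and was found in 72 of the 330 cells, with at most 9 transcripts in a cell, while *Lta4h* was found in 82.

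*Ptgs2*, the inducible cyclooxygenase, was also higher in Myh11-GFP cells but in fewer of them. It stood at 0.586, 0.165, 0.798 and 0.858 per 10,000 in libraries 13 to 16, at 0.0462, 0.174 and 0.114 in WT mice and at 0.0769, 0.127 and 0.0632 in Tln1 KO mice. Library 14 lay just below WT mouse 2. Without the deep barcodes that mouse fell to 0.108 and every library then lay above every mouse, with a ratio of 11.1 (95% interval 7.68 to 16.2) in place of 6.64 (4.85 to 9.08). The 83 *Ptgs2* transcripts came from 20 Myh11-GFP cells, of which 5 held 63.9%, and a single cell of library 13 held 18. *Ptgs2* and *Ptges* were found together in 11 cells; after thinning they were together in 2 of 329 cells where the product of their shares gave 0.608.

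*Ptgs2* is an immediate early gene, and the Myh11-GFP cells with more transcripts of other immediate early genes held more of it. This division was chosen after the data were seen and has no test. Within each library the cells were divided at the median of the summed level of 11 genes that included *Fos*, *Jun* and *Egr1*, 164 cells above and 164 below. *Ptgs2* stood at 0.908, 0.297, 1.19 and 1.23 per 10,000 in the upper part of libraries 13 to 16 and at 0.108, 0, 0.384 and 0.241 in the lower part. The upper part was higher in 4 of 4 libraries, with 72 against 11 transcripts and a ratio of 4.89 (95% interval 2.57 to 10.2), or 3.69 (1.91 to 7.83) without the cell with most transcripts. *Ptges* stood at 1.15, 1.69, 1.65 and 2.61 in the upper part and at 1.02, 0.620, 0.493 and 0.241 in the lower. It too was higher in 4 of 4 libraries, with a ratio of 2.52 (1.76 to 3.68), although library 13 differed little. *Lta4h* was split 2 to 2 with a ratio of 1.02 (0.679 to 1.55). Median depth was 5499 transcripts in the upper and 4125 in the lower part, and the part of depth in these ratios was not tested. Without cells rich in fibroblast markers the ratios were 9.89 (4.02 to 31.4) for *Ptgs2* and 2.28 (1.56 to 3.40) for *Ptges*.

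**Figure D5:**
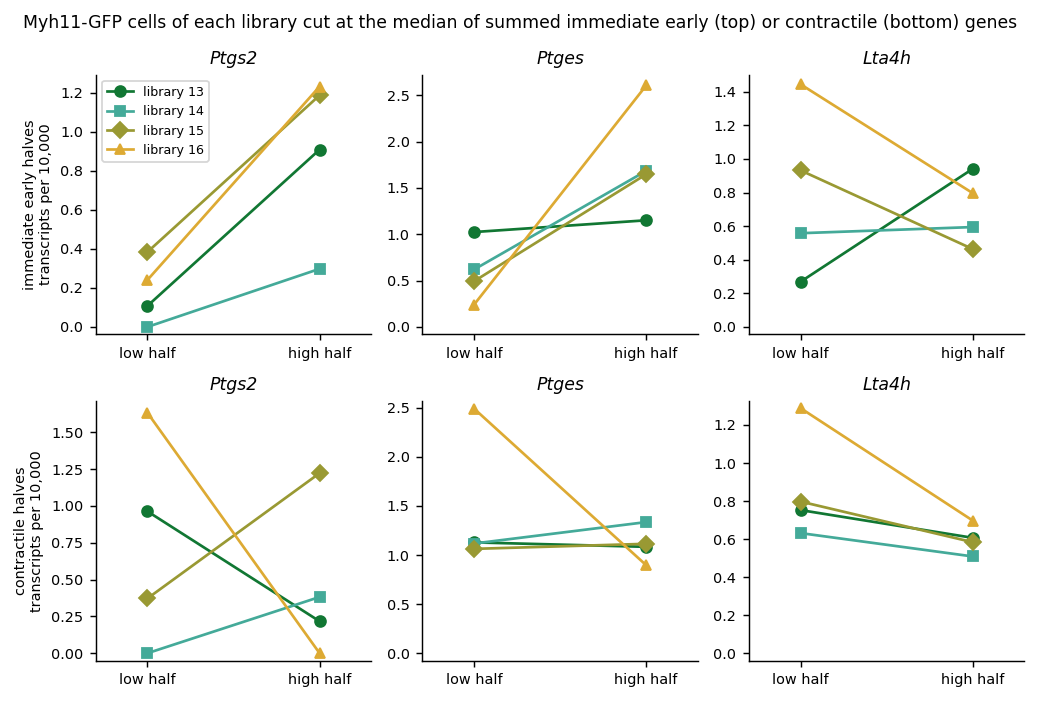
Levels of *Ptgs2*, *Ptges* and *Lta4h* (transcripts per 10,000 outside Gm genes) in the lower and upper part of the cells of each Myh11-GFP library, divided at the median of summed immediate early genes (top) or contractile genes (bottom); each line is 1 library. All 4 lines rise for *Ptgs2* and *Ptges* at the top, and all 4 fall for *Lta4h* at the bottom.

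The cells were also divided by contractile genes such as *Acta2* and *Myh11*. *Lta4h* was lower in the more contractile part in 4 of 4 libraries, with a ratio of 0.726 (95% interval 0.475 to 1.10) when divided at the median and 0.523 (0.278 to 0.944) between the 81 most and the 81 least contractile cells. *Ptges* gave 0.850 (0.622 to 1.16) with libraries split 2 to 2, and 0.615 (0.383 to 0.969) between the 81 most and 81 least, where all 4 were lower. *Ptgs2* gave 0.769 (0.481 to 1.21), again split 2 to 2. Library 16 had *Ptgs2* at 0 in the more contractile part and at 1.63 in the other, the reverse of library 15 with 1.22 and 0.372. Without cells rich in fibroblast markers, division at the median gave 0.761 (0.485 to 1.19) for *Lta4h* and 0.904 (0.644 to 1.27) for *Ptges*. For *Ptgs2* it gave 0.927 (0.563 to 1.52).

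*Ptgis*, prostacyclin synthase, was found in few cells, and in Myh11-GFP libraries most of its transcripts lay in cells rich in fibroblast markers. It gave 11 transcripts in 6 Myh11-GFP cells, at 0, 0, 0.0531 and 0.406 per 10,000 in libraries 13 to 16, and 9 transcripts in MCs, at 0.0578, 0 and 0.0572 in WT mice and at 0 in all 3 Tln1 KO mice. Library 16 was far above the others and also the richest in fibroblast markers, 3.40% of transcripts. In 25 of the 330 cells, 10 of them from library 16, fibroblast markers made up 2% or more of transcripts, and 66 cells lay between 1 and 4%. These 25 cells held 8 of the 11 *Ptgis* transcripts, in 3 of the cells, and 3 cells outside them held the other 3. The level in the 25 was 19.7 times that of the other cells (95% interval 4.73 to 115). For *Ptges* the ratio was 1.35 (0.859 to 2.04) and for *Ptgs2* 1.37 (0.696 to 2.50). A single cell of library 16 with 16.0% fibroblast markers held 3 *Ptgis*, 9 *Ptges* and 4 *Lta4h* transcripts. Among MC samples WT mouse 2 was highest in fibroblast markers, 0.827%, and held no *Ptgis*, as did its deep barcode with 22.9% fibroblast markers. Without the deep barcodes and marker-rich cells, 1 of the 9 *Ptgis* transcripts in MCs was left, in WT mouse 1. In Myh11-GFP cells 3 of the 11 were left. The part of fibroblasts or of doublets in the *Ptgis* signal was not tested.

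Between the genotypes no member passed the test. Of 9233 genes tested by limma on log2(level + 0.01), 0% (0 genes) were called at adjusted p under 0.05, and 481 (5.21%) had an unadjusted p under 0.05. The other 5 members, *Alox5*, *Ltc4s*, *Ptgs1*, *Ptges* and *Ptgis*, fell below the filter of 10 transcripts in 3 mice. Beside *Alox5ap*, *Hpgds* differed by 0.28 (SE 0.23, adjusted p = 0.914), with means of 2.75 ± 0.774 in WT and 3.28 ± 0.304 in Tln1 KO mice (SD, n = 3). *Lta4h* differed by -0.27 (SE 0.33, adjusted p = 0.953), *Pla2g4a* by -0.22 (SE 0.38, adjusted p = 0.966) and *Ptgs2* by -0.19 (SE 0.56, adjusted p = 0.980). By the exact permutation test over 6 mice, *Hpgds* had p = 0.4, *Lta4h* 0.7, *Pla2g4a* 0.7 and *Ptgs2* 0.8. Tln1 KO mouse 3 gave 72.8% of the Tln1 KO transcripts, but each mouse had equal weight in these tests.

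MCs were also divided within each mouse at the median of the same immediate early genes, and limma with the mouse as a block called 4.42% of 6651 genes (294), 2.75% higher (183) and 1.67% lower (111) in the upper part. Of the members 3 passed the filter and 0 were called. *Hpgds* differed by 0.20 (SE 0.10, adjusted p = 0.303) and was higher in 5 of 6 mice, *Lta4h* by 0.03 (adjusted p = 0.960) and *Alox5ap* by -0.84 (SE 0.49, adjusted p = 0.386). The *Alox5ap* value fell to -0.13 without Tln1 KO mouse 1, which held 7 transcripts in the lower part and 0 in the upper, and mice were split 3 to 3 with a pooled ratio of 0.976. *Ptgs2* was below the filter: its transcripts numbered 38 in the upper and 48 in the lower part with the deep barcodes and 35 and 13 without them, a ratio of 2.67 (95% interval 1.38 to 5.49). That ratio pools the mice. With all cells, *Ptgs2* was higher in the upper part in 3 mice and lower in 3. WT mouse 2 held 10 and Tln1 KO mouse 2 held 12 of the 38. *Ptges* went from 12 and 92 transcripts to 5 and 7.

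A list of 63 other eicosanoid genes (phospholipases, lipoxygenases, further synthases, transporters and receptors), 61 of them in the tables, was set beside the members. Between genotypes 20 were tested and none was called in either direction, none at an unadjusted p under 0.05, with a median log2 difference of -0.12 against -0.02 over all genes. Between the immediate early parts 16 were tested and 0 were called, and *Gpx1* alone had an unadjusted p under 0.05 (0.30 on the log2 scale, adjusted p = 0.136), beside 1206 of the 6651 genes tested. Between MCs and Myh11-GFP cells, 26 passed the filter on low values, of which 6 stood wholly above and 7 wholly below, beside the 22% and 17.6% of all genes tested.

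The 6 listed genes at the highest level in MCs were *Gpx1* and *Gpx4*, glutathione peroxidases that set the lipid peroxide tone, the prostaglandin transporter *Slco2a1*, the cytosolic prostaglandin E synthase *Ptges3*, the lysophospholipid acyltransferase *Mboat7* and *Cotl1*, which binds 5-lipoxygenase. *Mboat7*, at 0.953 to 1.63 per 10,000 in the mice and 0.133 to 0.355 in the libraries, was 4.36 times as high in MCs, and *Cotl1*, at 0.385 to 1.08 and 0.0265 to 0.125, 12.2 times. *Gpx4*, *Gpx1*, *Ptges3* and *Slco2a1* also led in Myh11-GFP cells, followed by *Ptgir*, the prostacyclin receptor, and *Ggt5*, which converts leukotriene C4 to D4. *Ptgir* lay at 0.632 to 1.74 per 10,000 in the libraries and at most at 0.0572 in the mice, and *Ggt5* at 0.637 to 1.32 and at most at 0.0286. Chosen after their values were seen, *Dpep1*, which converts leukotriene D4 to E4, and the receptors *Cysltr2* and *Tbxa2r* had the same direction, with 35, 20 and 23 transcripts in Myh11-GFP cells and 5, 1 and 4 in all MCs. Also chosen so, *Dpep2*, the other dipeptidase, had 28 transcripts in MCs and 0 in Myh11-GFP cells, and the prostaglandin E2 receptor *Ptger3* 286 and 13, though mice and libraries overlapped for both.

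Over the 6 mice and 4 libraries the genes most like *Hpgds* by Pearson correlation of log2 levels were *Arap3* (r = 0.995), *Sox7* (0.993) and *Nuak2* (0.993). Those most like *Ptges* were *Hdgfrp3* (0.976), *Ralgds* (0.975) and *Snhg6* (0.971), and those most like *Ptgs2* were *Lipa* (0.972), *Snhg18* (0.933) and *Tbc1d19* (0.930). For *Alox5ap* they included *Dnase1l1* (0.966) and *Cdc42* (0.964). *Lta4h* was closest to *Nip7* (0.923), *Cdkl3* (0.917) and *Aga* (0.917), *Pla2g4a* to *2810006K23Rik* (0.966), *2410004B18Rik* (0.950) and *Mea1* (0.935), and *Ptgs1*, of which 1 barcode holds most, to *Naa35* (0.938), *Tbcb* (0.932) and *Mtmr2* (0.918). The 10 points fall into 2 kinds of cell, which do not overlap for *Hpgds*, *Alox5ap* and *Ptges*.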

How the data were processed

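The deposited tables hold transcripts per gene and cell barcode of mCEL-Seq2 libraries. The labels and methods name bcl2fastq 2.17.1.14 and BWA 0.6.2-r126 against an mm10 transcriptome, with multi-mapping reads discarded. The authors corrected UMI counts for collisions among the 4096 possible 6-base UMIs, so the deposited values are estimated transcript counts that are not whole. Worked back, all were whole UMIs within 1e-06. No count model was run on them. Each deposited table has 192 barcode columns, of which 1 set of 96 held most transcripts; 17 kept barcodes came from the other set. Both barcode lists were left out, since their cell names match no sample here.

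Transcripts were summed per mouse over barcodes with over 1000 transcripts, divided by the sum outside the 5640 Gm genes and multiplied to 10,000. The genotypes (3 against 3 mice) were compared by limma 3.58.1 with a trend on log2(level + 0.01), for genes with at least 10 transcripts in 3 mice, with Benjamini-Hochberg adjustment and a threshold of 0.05. The immediate early parts of MCs were compared in the same way with the mouse as a block. No doublet caller was run; the methods describe a doublet gate in the sort. MC to Myh11-GFP ratios have exact 95% conditional Poisson intervals, and levels exact Poisson ones. In simulated data for the genotype comparison, 195 of 200 genes changed 4-fold were recovered among 9233, with 8 false calls, and 195 of 200 for the immediate early comparison, with 6. The simulated spread was fixed, the same for all genes and not taken from these data. These counts therefore check the procedure and do not give the power of the real comparisons. Python 3.11.15, scipy 1.17.1 and R 4.3.3 were used.

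The members and lists were chosen with earlier results of these data known. Of the other eicosanoid genes, those that passed a test and the 6 highest in each cell kind were to be named, and the 3 most correlated genes for each member with at least 50 transcripts, of which 1 is not reported here. Leaving out deep barcodes, and marker-rich cells with them, was chosen after seeing the data. Whether WT and Tln1 KO mice of the same number pair was checked by the correlation of their deviations from the group means. It was 0.19, -0.26 and -0.29, and ran from -0.31 to 0.45 for mice of different number. With 3 mice per group this cannot show whether littermates pair. No pairing was used in the main test. Replicates are separate mice, but the 4 Myh11-GFP libraries may share mice.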

Additional observations from a re-analysis of the deposited data

Results flagged for a closer look

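In the 4 Myh11-GFP libraries, *Alox5* stood apart in library 14 and *Ptgis* in library 16: the gap to the nearest other library was 1.00 of the whole range for *Alox5* and 0.869 for *Ptgis*. The *Alox5* value rests on 1 transcript, which gives 1.00 whichever library holds it, and for *Ptgis* library 16 holds 9 of 11. About 1 in 20 groups passes that limit by chance where values are continuous, which does not hold for counts this low.

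Of the 192 barcodes of each library, 1 set of 96 held 1.44 to 6.34% as many transcripts as the other set. Of its barcodes 17 passed the filter on transcripts and were kept, 8 of them in Myh11-GFP libraries. The barcodes of this set that were left out held, in the MC libraries, 57 *Hpgds*, 12 *Lta4h*, 11 *Alox5ap*, 8 *Pla2g4a* and 5 *Ptgs1* transcripts, above the 3 that a count of 0 allows, and in the Myh11-GFP libraries 6 *Alox5ap* transcripts, more than the 3 of all kept Myh11-GFP cells.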

How the results depend on the processing

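The number of genes called between genotypes, 0, rose to 44 (3 higher and 41 lower in Tln1 KO) with Gm genes kept in the total, which moved the median of all genes from -0.02 to 0.19, and lay between 0 and 8 with a mouse left out, 8 without Tln1 KO mouse 1. With mouse number as a replicate block it was 0, and *Alox5ap* differed by -1.47 (limma adjusted p = 0.979); the block changed no call. *Alox5ap* kept its direction under every alternative run, from -1.84 to -1.13 with a mouse left out. With a mouse left out, *Pla2g4a* ranged from -0.50 to 0.11 (positive without WT mouse 2) and *Lta4h* from -0.45 to 0.072 (positive without WT mouse 1). The 294 genes called between the immediate early parts of MCs became 499 with the cells nearer the median left out, 112 with thinned cells, 472 without the deep barcodes, 487 also without marker-rich cells, and 174 to 315 with a mouse left out, 174 without Tln1 KO mouse 2. There *Lta4h* ranged from -0.082 to 0.21 with a mouse left out (negative without WT mouse 1, 2 or 3) and was -0.043 without the deep barcodes and -0.071 also without marker-rich cells, and *Hpgds* was -0.081 with thinned cells. None of these values passed the threshold, and the causes were not tested. The count of members whose mice and libraries do not overlap was 3 or 4. Of the 9991 genes tested with all cells, 22% stood wholly above and 17.6% wholly below. Whether the members differ from all genes in this was not tested. The ratio of MCs to Myh11-GFP cells moved for *Ptges*, 0.0867, to 0.0566 without WT mouse 2, for *Pla2g4a*, 2.67, to 5.07 without library 16, and for *Lta4h*, 0.794, to 0.624 with Gm genes in the total. Without deep barcodes and marker-rich cells, *Alox5* rested on 12 MC transcripts and all 3 Tln1 KO mice lay above the WT mice. This order rests on 0, 1 and 0 transcripts in WT mice 1 to 3 and 1, 3 and 7 in Tln1 KO mice 1 to 3. With all cells the genotypes overlapped for *Alox5*, and 5.42% of the genes tested had that order. The limit on *Kcnq1ot1* removed 0 cells. The edgeR alternative was not run, since the deposited values are not whole counts. Depth limits *Alox5*, *Ltc4s*, *Ptgs1* and *Ptgis*, whose levels rest on few transcripts.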
